A study of Mus musculus with 24 samples.

Results

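B16-D, the first line recovered from dormant melanoma in mice, was compared with B16-M, the parental melanoma line it came from. The members were the arrays titled B16-D (1 of them titled 16D) and B16-M. These were 4 B16-D and 3 B16-M arrays, 7 of the 24 samples of the series. Both lines are B16-F1 mouse melanoma cells that carry a green fluorescent protein, the parental line being B16-F1GFP-M and the dormant line B16-F1GFP-D. B16-D was taken from syngeneic mice that had been vaccinated with irradiated tumour cells making GM-CSF and that carried the tumour cells for a year without outgrowth, and it was then expanded in culture. All lines were grown in DMEM with 10% serum, without a treatment. Total RNA (50 ng) was labelled in 1 colour and hybridised to whole-genome Agilent mouse arrays. The question was which transcripts a melanoma line carries differently after long dormancy in the body. A line is a single population of cells, so the replicates describe that population and not several independent dormant tumours. B16-D-733, B16-D-735 and B16-D-739 are second-generation lines, recovered again after B16-D had been put back into mice, with 10 arrays between them. A pair of the B16-D-733 arrays share a title stem and may be repeats of 1 sample, yet each was counted on its own. The lines served to estimate the spread and to show whether a change of B16-D was still seen in its descendants.

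Dormant tumour cells survive in the body without forming a growing mass, because they stop dividing, because division and death balance, or because immune cells hold them back. Melanoma cells keep the enzymes that make pigment, yet they can switch toward a more migratory state in which they lay down matrix and build contractile fibres. Interferons made by immune cells switch on a large set of antiviral and antigen-handling genes in tumour cells, and the basal level of that set differs between cell lines.

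Levels are log2 signals relative to the 75th percentile of the same array, so 0 is the level of that percentile. The share of spots well above background was 46.0% on B16-D replicate 0, 52.5% on replicate 1 and 55.2% on replicate 3. It was 51.4%, 54.1% and 52.4% on the B16-M replicates 0, 1 and 2. On B16-D replicate 2 it was 90.3%, with a median signal of 155.4 against 21.1 to 38.5 on the other 16 melanoma arrays, and that array was left out of every result unless it is named. The background on B16-D replicate 0 was uneven, with a standard deviation of 7.61 among its negative controls against 3.01 to 4.04 on the others. No spot was saturated on any array. The number of arrays, 3 against 3, limits the precision of every value. The labels do not say whether the replicates were grown separately, and if they were technical repeats the p-values measure only the spread between these samples. The arrays lay on 3 slides. Slide 1 held B16-M replicate 2 with B16-D replicates 0 and 1, slide 3 held B16-M replicate 0 with B16-D replicate 3, and slide 2 held B16-M replicate 1 with the B16-D array that was left out. The titles of B16-D replicates 1, 2 and 3 hold a date, whose meaning is not given, and those of B16-D replicate 0 and of all B16-M arrays do not, so this mark partly coincides with the line. Values for single arrays are given in the order of replicates 0, 1 and 3 for B16-D and 0, 1 and 2 for B16-M.

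Both lines carried the marks of pigment cells. All 8 pigment cell markers were well above background on every array of both lines and none was called different. Their summed signal was 1736, 1474 and 1590 on the B16-D arrays and 1678, 1528 and 1585 on the B16-M arrays, and *Mlana*, a melanosome protein, made up 26.8% of it. *Sox10*, a master regulator of pigment cells, stood at 5.11, 5.11 and 5.25 in B16-D and at 5.07, 5.29 and 5.18 in B16-M. Those ranges overlap, and limma gave an adjusted p of 0.927. Limma gave *Mitf*, the other master regulator, 0.627, the enzymes *Tyr* 0.482, *Tyrp1* 0.845 and *Dct* 0.663, and the melanosome protein *Pmel* 0.439. These values are for the brightest probe, and another *Tyr* probe, well above background on all 6 arrays, gave a log2 difference of -0.91. Markers of other cell types were only in part at background. Above background on no array of either line were 5 of 6 endothelial and 5 of 10 fibroblast markers. The same held for 3 of 7 leukocyte, 3 of 6 keratinocyte, 2 of 6 vessel muscle and 1 of 6 glia and neuron markers. Leukocyte *Ptprc*, endothelial *Cdh5* and fibroblast *Col3a1* were among these, although *Itgam*, *Csf1r*, *Cd3e* and fibroblast *Col1a2* were above background on all 6 arrays. *Pdgfrb*, counted as a fibroblast marker, was above it on 3 B16-D arrays and no B16-M array and was called higher. The summed signal of fibroblast markers ran from 0.677 to 0.917 over the 6 arrays, that of leukocyte markers from 4.98 to 11.7, and of glia and neuron markers from 5.76 to 11.2, each with overlap between the lines. That of keratinocyte markers ran from 5.93 to 8.09 in B16-D and from 9.15 to 10.4 in B16-M, without overlap, and *Trp63* made up 98.8% of it, with an adjusted p of 0.0992 in limma. Vessel muscle markers summed to between 0.815 and 1.97 over the 6 arrays, with overlap between the lines. The part of any other cell type in the results was not tested.

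Of 24316 genes tested, 877 passed an adjusted p of 0.05 (limma, two-sided, Benjamini-Hochberg), which is 3.61%. They were 490 genes higher in B16-D, 2.02% of those tested, and 387 lower, 1.59%. The lists given later hold only genes with a symbol. Their background is therefore the 14138 tested genes with a symbol and a place on a chromosome. Of these placed genes 2.72% were called higher and 2.30% lower. On all 877 the 3 B16-D arrays lay apart from the 3 B16-M arrays, and this was true of 2682 tested genes on the higher side, 11.03%, and 1535 on the lower side, 6.31%. Over the placed genes these shares were 14.1% and 8.25%. The median difference over all tested genes was -0.04, or -0.01 with silent genes at their bounds. By fitted folds, 243 called genes were over 2-fold higher and 173 over 2-fold lower, folds against a line without signal included. The counts and their balance depended on single arrays. Without B16-M replicate 1 the number called was 409, without B16-M replicate 2 it was 458 and without B16-D replicate 1 it was 496. Without B16-D replicate 0 the majority lay on the other side, with 444 higher and 546 lower, as it did with slide as a block, at 609 and 639. Of 171 named genes that were called, 45 were not called with normexp, an alternative background correction, and 13 not with slide as a block. Still called were 127 of the 171 with B16-D replicate 2 and 106 without the filter on dim probes. With only the 6 arrays of both lines this number was 29 of 167. Of genes given later, the slide block ended the call of *Usp18*, *Cdkn1c*, *Trp53inp1*, *Mest*, *Msmo1*, *Cbr2*, *Thbs3*, *S100a1* and *Slc13a4*, with limma adjusted p-values between 0.0511 and 0.0694. In bulk RNA, fewer cells that express a gene and less of its RNA in each cell cannot be told apart.

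Position on the genome set 1 group of genes apart. Each symbol was placed on a chromosome by the RefSeq annotation of GRCm38.p6, and 14138 tested genes fell on 20 chromosomes with at least 100 tested genes. On chromosome 10, 64 of 690 tested genes were called lower and 5 higher. That is 9.28% lower, against 1.94% of the 13448 placed genes elsewhere, and 0.725% higher, against 2.83% elsewhere. The median difference of all 690 genes was -0.25, whereas the medians of the other chromosomes ran from -0.02 to 0.10. Of the 690 genes 549, or 79.6%, had a negative difference, against 46.2% elsewhere. The chromosome was picked out after its values were seen.

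The shift of chromosome 10 appeared on each B16-D array. Measured from the B16-M mean, the median of its genes was -0.20, -0.27 and -0.25 on the B16-D arrays and 0.02, -0.07 and 0.06 on the B16-M arrays. All 3 B16-D arrays were low and none overlapped B16-M. Within slide 1 the median difference was -0.27 and within slide 3 it was also -0.27. The B16-D array left out read -0.35, with -0.06 for the genes of all other chromosomes on that array. The shift also ran along the whole chromosome. When the 690 genes were divided in order into 10 runs of 69 neighbours, the median of every run was negative, from -0.34 to -0.18, and each run held between 2 and 13 genes called lower. Over all other settings of the analysis the median stayed between -0.29 and -0.18, while the number called lower ran from 2 with only the 6 arrays of both lines to 128 with slide as a block. Without B16-D replicate 1 it was 41, without B16-M replicate 1 it was 33 and without B16-M replicate 2 it was 28.

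**Figure D1:**
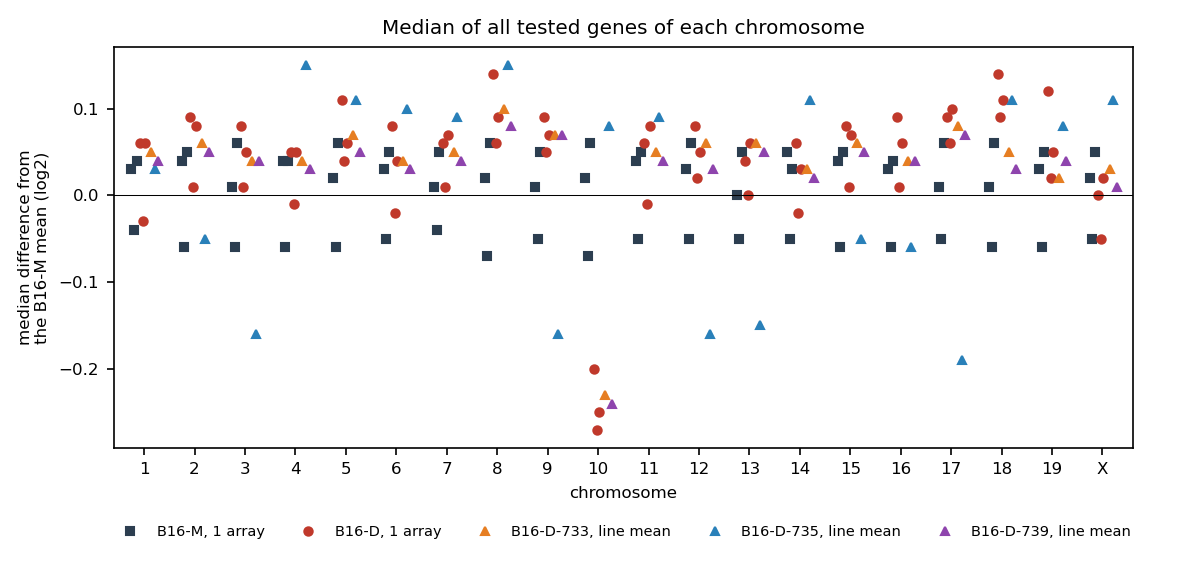
Median over all tested genes of each chromosome of the log2 difference from the B16-M mean, for each B16-M array (squares), each B16-D array (circles) and the mean of each second-generation line (triangles). On chromosome 10 the B16-D arrays lie at -0.20, -0.27 and -0.25, and B16-D-735 lies at 0.08.

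The second-generation lines did not all share it. Against the same B16-M arrays, the chromosome 10 median was -0.23 in B16-D-733 and -0.24 in B16-D-739. In B16-D-735 it was 0.08, with its arrays between 0.06 and 0.13, and it overlapped neither B16-D nor the other descendants. That line showed low medians on other chromosomes instead, with -0.19 on chromosome 17, -0.16 on chromosomes 3, 9 and 12 and -0.15 on chromosome 13. B16-D itself read 0.08 on chromosome 17 and 0.04 on chromosome 9. These differences of medians between lines were not tested.

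The named genes of chromosome 10 came from many classes. *S100b*, a calcium-binding protein used as a melanoma marker, read 4.30, 3.36 and 3.25 in B16-D against 4.86, 4.86 and 5.25 in B16-M. Every B16-D array was below every B16-M array, with replicate 0 the highest of the line. The gene fell 2.56-fold (limma adjusted p = 0.00571, 3 of 3 arrays lower). *Plxnc1*, a semaphorin receptor of melanocytes, read 0.79, 0.46 and 0.41 against 1.41, 1.51 and 1.74. The lines did not overlap, and it fell 2.00-fold (limma adjusted p = 0.00102). *Fabp7*, a fatty acid carrier of neural crest cells, read 1.26, 1.41 and 1.46 against 2.36, 2.37 and 2.36, a 1.98-fold fall with almost no spread within B16-M (limma adjusted p = 0.000307). *Gstt3*, a glutathione transferase, fell 2.21-fold (limma adjusted p = 7.7e-05) and was called under all 18 other settings. From copy number arrays, the study reported deletions of *S100b* and *Gstt3* in the dormant melanoma line only. It also described no difference between dormant and parental cells at the level of chromosome arms. The part of copy number in the values given here was not tested. *Rab32*, which carries enzymes to the melanosome, fell 1.55-fold (limma adjusted p = 0.0214). *Perp*, a p53 target in cell junctions, was well above background on all 3 B16-M arrays and on no B16-D array, and was at least 1.70-fold lower. B16-D replicate 2, which was left out, read -2.51, above every B16-M array, and with it limma gave *Perp* an adjusted p of 0.595.

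Further genes of chromosome 10 were chosen after their values were seen. *Ifngr1*, the ligand-binding chain of the interferon-gamma receptor, read -0.01, 0.52 and 0.68 in B16-D and 1.08, 1.15 and 1.34 in B16-M. The ranges did not overlap, and the gene fell 1.73-fold (limma adjusted p = 0.0144). *Map3k5*, a stress-activated kinase, fell 2.14-fold (limma adjusted p = 0.00264). *Lats1*, a kinase of the Hippo pathway that restrains YAP, fell 1.39-fold (limma adjusted p = 0.0291). The 5 genes called higher on the chromosome were *H60b*, *Lgr5*, *Hmga2*, *Hk1* and *Slc35f1*. *Hmga2*, a chromatin protein of embryonic and tumour cells, read 3.04, 2.52 and 2.30 against 0.95, 0.62 and 1.15. All B16-D arrays were above all B16-M arrays by more than a doubling, and the gene rose 3.28-fold (limma adjusted p = 0.00286). *Lgr5*, a stem cell receptor, was well above background on no array of either line, so no fold is given.

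Chromosome 18 was the mirror case in counts, with 23 of its 343 tested genes called higher and 0 lower by limma. That is 6.71% higher, and its median of 0.10 was the highest of any chromosome, at 0.06 within slide 1 and 0.10 within slide 3. Under the other settings between 0 and 7 of its genes were called lower. *Megf10*, an engulfment receptor chosen after its values were seen, read -0.68, -0.72 and -0.70 in B16-D and -4.74, -4.02 and -3.67 in B16-M. The B16-D arrays were nearly equal and far above B16-M, where 2 of 3 arrays were well above background. It was at least 10.9-fold higher (limma adjusted p = 8.64e-05). *Pdgfrb*, the platelet-derived growth factor receptor beta, was well above background on all 3 B16-D arrays and on no B16-M array, and was at least 2.40-fold higher. *Zfp521*, a zinc finger regulator of stem cell fate, was at least 5.98-fold higher with 1 of 3 B16-M arrays above background (limma adjusted p = 0.00594). On the X chromosome 16 genes were called higher and 20 lower of 454, with a median of -0.02. *Cited1*, a transcriptional coactivator found in melanocytes and chosen after its values were seen, read 5.96, 5.62 and 5.69 against 6.97, 7.16 and 7.35. Every B16-D array was low, and the gene fell 2.65-fold (limma adjusted p = 0.0024). *Il13ra1*, an interleukin receptor chain also chosen after its values were seen, read -0.61, -0.78 and -0.76 against -3.09, -2.94 and -2.70. It rose 4.57-fold with no overlap (limma adjusted p = 4.95e-07) and was called under every other setting.

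The gene lists were described by how many members were called and by their median, beside the rates over placed genes. Of 65 lists, interferon response lay lowest and ribosome biogenesis the highest among lists with 10 or more tested members.

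**Figure D2:**
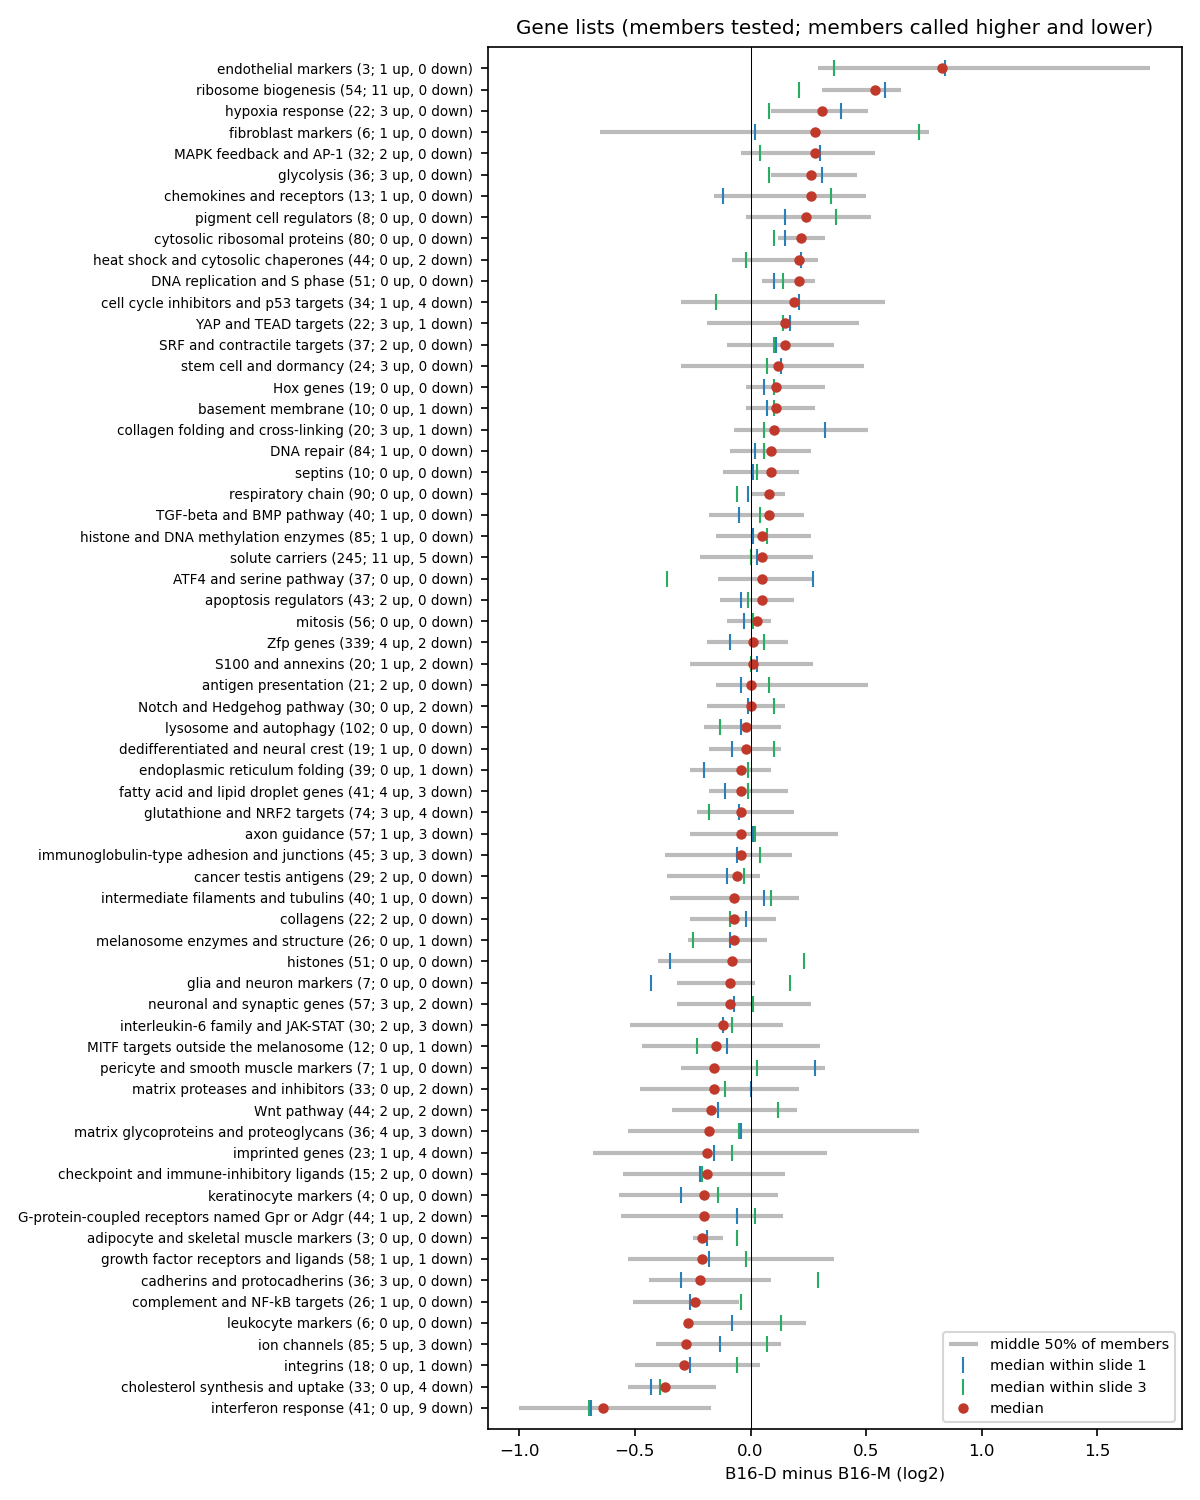
Median log2 difference of B16-D from B16-M for the gene lists shown (circles), the middle 50% of its members (bars) and the medians within slide 1 and slide 3 (ticks), with the number of members tested and called beside each name. Interferon response lies at -0.64, cholesterol synthesis and uptake at -0.37 and ribosome biogenesis at 0.54.

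Most interferon response genes, 35 of 41, had a lower mean in B16-D. Of 41 tested, 9 were called lower and 0 higher, 19 had all B16-D arrays below all B16-M arrays, and the median was -0.64, with -0.69 within slide 1 and -0.70 within slide 3. By array, the median of the members measured from the B16-M mean was -0.40, -0.69 and -0.91 in B16-D and -0.19, 0.00 and 0.21 in B16-M. The lines did not overlap, and B16-D replicate 0 stood nearest to B16-M. In 2 members, *Oasl1* and *Dhx58*, which were chosen after their values were seen, all B16-D arrays lay above all B16-M arrays. *Oasl1*, an antiviral relative of the oligoadenylate synthetases, stood 4.12, 0.97 and 0.79 above the B16-M mean and was above background on 1 of 3 B16-M arrays. It was highest on B16-D replicate 0, and limma gave an adjusted p of 0.112. The median stayed between -0.78 and -0.40 under all other settings, while the number called lower depended on single arrays. It was 17 without B16-D replicate 0, 5 without B16-D replicate 1, 5 without B16-D replicate 3, 5 without B16-M replicate 1, 4 without B16-M replicate 2, 4 with only the arrays whose title holds no date and 2 with only the 6 arrays of both lines. With B16-D replicate 2 included it was also 9, but *Oas2*, *Irgm2* and *Gbp7* then did not pass. Their limma adjusted p-values there were 0.0619, 0.0742 and 0.990. None of the 9 members called in the reported fit lies on chromosome 10. They include *Gbp7*, which was well above background on no array of either line.

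*Oas1a*, which makes the short oligoadenylates that switch on RNA decay, read 1.10, -0.07 and -0.22 in B16-D and 1.83, 2.15 and 2.34 in B16-M. Every B16-D array was lower, with replicate 0 the highest of the line. It fell 3.58-fold (limma adjusted p = 0.00242). *Oas2*, a longer relative, was well above background on all 3 B16-M arrays and on no B16-D array, and was at least 2.61-fold lower. *Irgm2*, an interferon-induced GTPase that guards vacuoles, read -3.09, -3.24 and -3.60 against -1.97, -1.66 and -1.12. The lines lay more than a unit apart, and it fell 3.31-fold (limma adjusted p = 0.00133). B16-D replicate 2, which was left out, read -1.69, within the B16-M range, and with it the call of *Irgm2* was lost. *Igtp*, another GTPase of that family, read -4.25, -4.73 and -4.40 against -2.88, -2.32 and -2.18, with 1 of 3 B16-D arrays above background. It was at least 3.93-fold lower with no overlap (limma adjusted p = 0.00105) and was called under all 18 other settings.

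The remaining 5 called members were chosen after their values were seen. *Parp14*, an ADP-ribose transferase, fell 2.32-fold (limma adjusted p = 0.0123). *Usp18*, which removes ISG15 from proteins and dampens interferon signals, fell 2.19-fold (limma adjusted p = 0.0438). *Ddx58*, the cytosolic sensor RIG-I, read -0.13, -0.96 and -0.92 against 0.10, 0.43 and 0.74. All B16-D arrays were below B16-M, by little for replicate 0, and it fell 2.13-fold (limma adjusted p = 0.0192). *Trim25*, the ligase that activates RIG-I, fell 1.76-fold (limma adjusted p = 0.0267). *Gbp7*, a guanylate-binding protein, was well above background on no array of either line, so no fold is given. *Irf7*, a regulator of the response, did not pass the test, at -1.34, -2.09 and -2.28 against -1.18, -1.25 and -0.56, with an adjusted p of 0.0539 in limma, but it passed at 0.0402 with slide as a block, at 0.0277 with B16-D replicate 2, at 0.0405 with the stricter filter and at 0.00538 without B16-D replicate 0. *Isg15* overlapped between the lines, since B16-D replicate 0 read 2.43 and the B16-M arrays 1.41 to 1.90, though without that array it passed in limma at an adjusted p of 0.032.

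**Figure D3:**
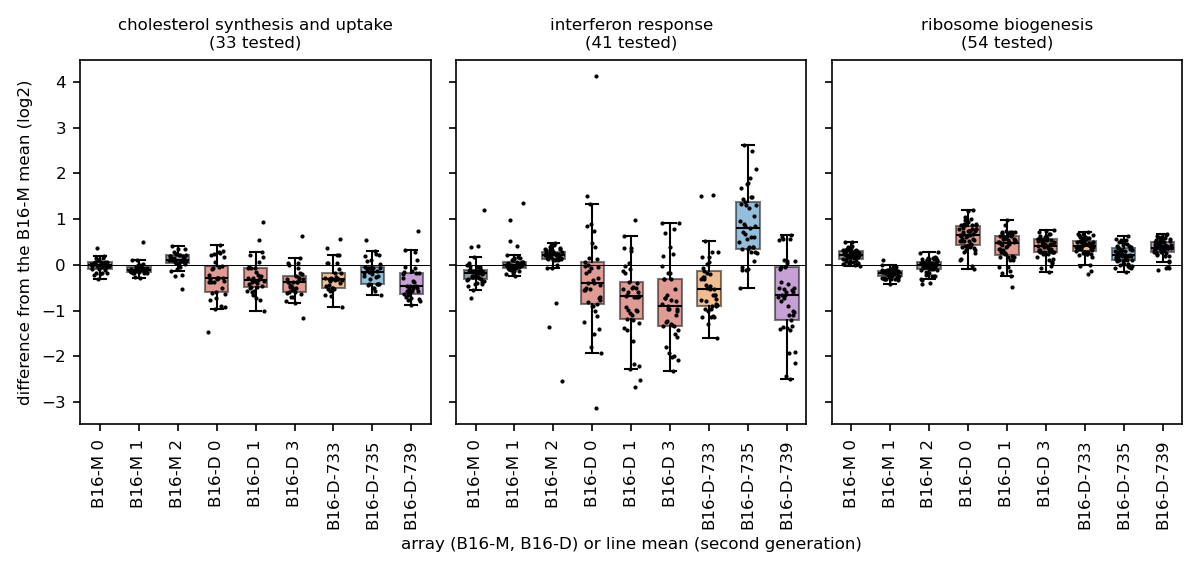
Log2 difference of each tested member from its B16-M mean, for each B16-M and B16-D array and for the mean of each second-generation line; boxes span the middle 50% and the line marks the median. For interferon response the B16-D medians are -0.40, -0.69 and -0.91, and that of B16-D-735 is 0.80.

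The medians of the descendants stood on both sides of B16-M, without a test between them. Against the same B16-M arrays, the median of the interferon response members was -0.53 in B16-D-733, -0.66 in B16-D-739 and 0.80 in B16-D-735. *Ddx58* averaged -0.72 in B16-D-733, -0.98 in B16-D-739 and 2.09 in B16-D-735, the last above every B16-M array. In the test of B16-D against the mean of the 3 descendant lines, 272 of 24316 genes passed (1.12%), 64 higher in B16-D (0.263%) and 208 lower (0.855%). Of the 14138 placed genes 49 were higher and 176 lower. Of the 41 interferon response members 7 were lower in that test and 0 higher. That comparison shares its B16-D arrays with the one against B16-M.

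The promoters of these genes were then searched for the interferon-stimulated element. RefSeq windows of GRCm38.p6, running from 250 bases before to 50 bases after each gene start, gave 32817 promoters of 300 bases. The letters GAAA, 2 bases of any kind and GAAA again, the core of the interferon-stimulated element, were sought on both strands. They occurred in 3.43% of all promoters. Of 11255 tested genes with a promoter, 400 (3.55%) held them in at least 1 promoter. Of the 33 interferon response members with a promoter, 19 (57.6%) held them, and among the 6 called ones 5 did, *Oas1a*, *Ddx58*, *Gbp7*, *Igtp* and *Irgm2*. The list was drawn up from genes of the interferon response, so its share describes the choice of members and not a change in B16-D. *Gbp7* was well above background on no array of either line, so its call rests on background signal and is no measured difference. Over all 400 tested genes that held the letters, 7 were called higher and 16 lower, and their median was -0.04, against 289 higher, 271 lower and 0.02 for the 11255. The 16 include the 5 called list members, *Gbp7* among them. A match is a description of the letters and not a shown binding site. The promoters of the 3 matched genes with the largest fall are shown, 5′ to 3′ on the gene's strand, with the first match in capitals: *Igtp* at chr11:58199306-58199605 on the plus strand, *Oas1a* at chr5:120907476-120907775 on the minus strand and *Irgm2* at chr11:58214727-58215026 on the plus strand.
Igtp: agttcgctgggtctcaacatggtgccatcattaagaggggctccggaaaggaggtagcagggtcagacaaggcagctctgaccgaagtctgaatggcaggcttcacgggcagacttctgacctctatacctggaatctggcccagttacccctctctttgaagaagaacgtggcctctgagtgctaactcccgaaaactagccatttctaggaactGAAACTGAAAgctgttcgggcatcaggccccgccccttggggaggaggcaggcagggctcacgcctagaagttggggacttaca
Oas1a: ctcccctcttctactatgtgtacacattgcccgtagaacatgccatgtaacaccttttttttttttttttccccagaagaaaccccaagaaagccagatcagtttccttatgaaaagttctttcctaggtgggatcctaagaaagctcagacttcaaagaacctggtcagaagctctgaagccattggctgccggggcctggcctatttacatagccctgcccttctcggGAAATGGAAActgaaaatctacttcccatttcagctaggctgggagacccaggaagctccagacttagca
Irgm2: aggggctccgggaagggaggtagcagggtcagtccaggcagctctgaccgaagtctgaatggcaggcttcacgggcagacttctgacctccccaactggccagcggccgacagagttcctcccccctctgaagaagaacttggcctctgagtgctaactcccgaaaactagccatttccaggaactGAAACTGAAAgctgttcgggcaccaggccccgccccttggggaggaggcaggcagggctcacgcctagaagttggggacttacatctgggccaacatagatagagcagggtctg

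Most genes that build ribosomes, 52 of 54, had a higher mean in B16-D. Of 54 tested members of ribosome biogenesis, 11 were called higher and 0 lower, 35 had all B16-D arrays above all B16-M arrays, and the median was 0.54. By array the median stood at 0.65, 0.48 and 0.42 in B16-D and at 0.22, -0.18 and -0.01 in B16-M. The lines did not overlap in this median, though B16-M replicate 0 came nearest. Within slide 1 the median difference was 0.58 and within slide 3 it was 0.21, where the B16-M array is the highest of its line. The median stayed between 0.40 and 0.65 under all other settings. The count was less steady, at 3 with B16-D replicate 2, 3 without the filter on dim probes, 3 without B16-D replicate 0, 4 without B16-D replicate 1, 2 without B16-M replicate 1, 2 without B16-M replicate 2, 17 without B16-M replicate 0 and 0 with only the 6 arrays of both lines.

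*Polr1e*, a subunit of the polymerase that transcribes ribosomal RNA, read 0.82, 0.53 and 0.49 in B16-D and -0.04, -0.37 and -0.14 in B16-M. Every B16-D array was higher, and the gene rose 1.73-fold (limma adjusted p = 0.00268). *Nop16*, a nucleolar protein, rose 1.91-fold (limma adjusted p = 0.049). *Rrp9*, which binds the guide RNA of early ribosomal RNA cleavage, rose 1.82-fold (limma adjusted p = 0.0187). Of the members chosen after their values were seen, *Heatr1*, a nucleolar processing factor, read 3.72, 3.74 and 3.60 against 3.15, 2.91 and 3.06. The replicates of each line were close together, and it rose 1.57-fold (limma adjusted p = 0.00645). *Npm1*, an abundant nucleolar chaperone, read 6.79, 6.59 and 6.62 against 6.27, 5.86 and 5.98 and rose 1.54-fold (limma adjusted p = 0.0203). *Nop2*, a methylase of ribosomal RNA, rose 1.70-fold (limma adjusted p = 0.0205).

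*Myc*, a transcription factor that drives ribosome production, read 1.81, 2.06 and 1.66 in B16-D and 0.93, 0.56 and 0.68 in B16-M. The 3 B16-D arrays were all above B16-M. It rose 2.17-fold (limma adjusted p = 0.014), with a log2 difference of 1.26 within slide 1 and 0.73 within slide 3. Its E-box, CACGTG, was sought on the promoters of the ribosome biogenesis genes. Of 46 members with a promoter 8 (17.4%) held it, against 11.3% of the 11255 tested genes and 7.15% of all promoters. Of the 9 called members with a promoter 2 held it, *Nop2* and *Wdr43*, a nucleolar processing factor that rose 1.70-fold (limma adjusted p = 0.0311). The promoters of both follow with the motif in capitals, *Nop2* at chr6:125131633-125131932 and *Wdr43* at chr17:71615965-71616264, each on the plus strand.
Nop2: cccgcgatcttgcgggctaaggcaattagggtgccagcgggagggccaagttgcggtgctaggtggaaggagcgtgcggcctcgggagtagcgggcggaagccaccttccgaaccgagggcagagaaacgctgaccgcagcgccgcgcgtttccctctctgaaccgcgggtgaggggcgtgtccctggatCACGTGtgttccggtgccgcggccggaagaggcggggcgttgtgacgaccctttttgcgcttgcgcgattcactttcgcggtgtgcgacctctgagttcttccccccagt
Wdr43: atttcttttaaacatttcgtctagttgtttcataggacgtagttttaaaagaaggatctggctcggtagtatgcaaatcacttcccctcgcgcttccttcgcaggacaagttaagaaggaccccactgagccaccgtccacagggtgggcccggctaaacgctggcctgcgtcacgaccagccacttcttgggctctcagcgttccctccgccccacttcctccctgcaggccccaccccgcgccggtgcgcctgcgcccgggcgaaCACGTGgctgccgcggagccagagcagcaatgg

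In the lists of cytosolic ribosomal proteins, DNA replication and mitosis no member was called by limma. Cytosolic ribosomal proteins had a median of 0.22 with 0 of 80 called, 76 positive and 24 (30.0%) with all B16-D arrays above B16-M. Under the other settings this median ran from 0.03 to 0.37. By array it was 0.37, 0.09 and 0.20 in B16-D and 0.09, -0.19 and 0.09 in B16-M, so the lines were not apart. DNA replication and S phase had a median of 0.21 with 0 of 51 called, 43 positive and 17 (33.3%) with all B16-D arrays above. Under the other settings this median ran from 0.07 to 0.24. By array it was 0.07, 0.24 and 0.23 in B16-D and 0.09, -0.15 and 0.07 in B16-M, with overlap. Mitosis had a median of 0.03 with 0 of 56 called, which turned negative under quantile normalization (-0.07) and normexp (-0.02). These counts of 0 stand beside 4046 of all tested genes with an unadjusted p under 0.05. *Mki67*, the proliferation antigen Ki-67, read 4.37, 5.05 and 4.94 in B16-D and 4.79, 5.14 and 5.26 in B16-M. The ranges overlap, and limma gave an adjusted p of 0.588.

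Cell cycle inhibitors and p53 targets went both ways, with 1 of 34 tested called higher and 4 lower. *Cdkn2d*, the inhibitor p19 of the G1 kinases, read 3.77, 3.72 and 3.90 in B16-D and 4.17, 4.26 and 4.29 in B16-M. The lines were narrowly apart, and it fell 1.36-fold (limma adjusted p = 0.0291). *Cdkn2c*, the inhibitor p18, fell 1.61-fold (limma adjusted p = 0.0364). *Cdkn1c*, the inhibitor p57, read -3.50, -5.23 and -5.17 against -3.05, -2.90 and -2.78, with 1 of 3 B16-D arrays above background. Replicate 0 stood close to B16-M while the other B16-D arrays were more than 2 units lower, and the gene was at least 3.02-fold lower (limma adjusted p = 0.0446, but 0.0516 with normexp). *Trp53inp1*, a p53 partner in stress, rose 2.01-fold (limma adjusted p = 0.0472), most on replicate 0. *Cdkn1a*, the inhibitor p21, read 4.01, 2.66 and 2.51 against 2.00, 1.62 and 2.02. The B16-D arrays were unequal but higher, and limma gave an adjusted p of 0.0722. *Cdkn2a* was too dim to be tested. Among 43 apoptosis regulators 2 were called higher, *Bid*, which carries death signals to mitochondria and rose 1.51-fold (limma adjusted p = 0.034), and *Ripk3*.

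Imprinted genes, read from only the maternal or the paternal copy, included 1 called higher and 4 lower of 23. *Mest* read 0.21, 1.70 and 1.72 in B16-D and -0.26, -0.44 and -0.28 in B16-M. All B16-D arrays were higher, with replicate 0 far below the other members of its line. It rose 2.90-fold (limma adjusted p = 0.0387). *Tspan32*, a membrane organiser, fell 2.73-fold (limma adjusted p = 0.00264). B16-D replicate 2, which was left out, read -1.80, within the B16-M range, and with it limma gave *Tspan32* an adjusted p of 0.153. *Phlda2*, a placental growth regulator, fell 2.06-fold (limma adjusted p = 0.0114). *Plagl1*, a zinc finger growth suppressor on chromosome 10, read 6.28, 6.01 and 6.19 against 6.70, 6.80 and 6.75. The lines did not overlap, and it fell 1.5-fold (limma adjusted p = 0.00692).

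Most cholesterol genes, 28 of 33, had a lower mean in B16-D. Of 33 tested members of cholesterol synthesis and uptake 4 were called lower and 0 higher, 14 had all B16-D arrays below B16-M and 1 had all above, and the median was -0.37, at -0.43 within slide 1 and -0.39 within slide 3. By array the median was -0.29, -0.34 and -0.38 in B16-D and 0.00, -0.11 and 0.11 in B16-M. All 3 B16-D arrays were below all 3 B16-M arrays. The median stayed between -0.44 and -0.27 under all other settings, and the number called lower ran from 0, without B16-M replicate 2 and with only the 6 arrays of both lines, to 8 with quantile normalization. It was 2 without B16-M replicate 0 or 1, with the mean of all probes and without the filter on dim probes. *Fdps*, which makes farnesyl diphosphate, read 5.47, 5.60 and 5.60 in B16-D and 6.13, 5.96 and 6.19 in B16-M. Every B16-D array was lower, with little spread, and the gene fell 1.45-fold (limma adjusted p = 0.015). *Tm7sf2*, a late reductase of the pathway, fell 1.91-fold (limma adjusted p = 0.0108). *Msmo1*, a sterol oxidase, fell 1.55-fold (limma adjusted p = 0.0441). *Abca1*, which exports cholesterol and is a member outside synthesis and uptake, read -3.36, -2.47 and -2.70 against -1.87, -2.02 and -1.78. It too was lower on every B16-D array and fell 1.93-fold (limma adjusted p = 0.0197).

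*Srebf2*, a regulator of the pathway chosen after its values were seen, read 0.46, 0.99 and 0.61 in B16-D and 0.87, 0.71 and 0.83 in B16-M. The ranges overlap, and limma gave an adjusted p of 0.741. A sterol element spelled TCACNCCAC was sought on both strands of the promoters. It occurred in 1.24% of all promoters, in 1.47% of the tested genes with a promoter, in 1 of 25 cholesterol synthesis and uptake members and in 0 of the 3 called ones.

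Fatty acid and lipid droplet genes split, with 4 of 41 tested called higher and 3 lower. *Fabp3*, a fatty acid carrier of heart and muscle, read -1.93, -2.20 and -2.42 in B16-D and -5.87, -5.37 and -3.96 in B16-M, with 1 of 3 B16-M arrays above background. It was at least 5.33-fold higher with no overlap (limma adjusted p = 0.00039). *Mgll*, which releases fatty acids from monoglycerides, read 1.20, -0.47 and -0.60 against 3.69, 2.48 and 2.44. All B16-D arrays were lower, with replicate 0 the highest of the line, and the gene fell 7.11-fold (limma adjusted p = 0.0027). *Dgat2*, which makes triglycerides, rose 1.57-fold (limma adjusted p = 0.025). *Gpd1*, which links sugar breakdown to lipid synthesis, rose 1.73-fold (limma adjusted p = 0.028). *Ppara*, a regulator of fat burning, was at least 2.35-fold lower with 2 of 3 B16-D arrays above background (limma adjusted p = 0.0134). B16-D replicate 2, which was left out, read -2.56, above every B16-M array, and with it limma gave *Ppara* an adjusted p of 0.274.

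A few genes of sugar breakdown were called, all higher, at 8.33% of the list against 2.72% of placed genes. In 13 of its 36 genes (36.1%) all B16-D arrays lay above all B16-M arrays, against 14.1% of placed genes. In 2 (5.56%) they lay below, against 8.25%. Of 36 glycolysis genes 3 were called higher and 0 lower, with a median of 0.26, at 0.31 within slide 1, 0.08 within slide 3 and -0.09 within slide 2 with B16-D replicate 2. By array the glycolysis median was 0.41, 0.27 and 0.18 in B16-D and 0.07, -0.15 and 0.08 in B16-M. *Slc16a3*, the exporter of lactate, read 2.09, 2.63 and 1.45 in B16-D and 0.18, -0.25 and 0.43 in B16-M. The B16-D arrays varied but all lay above B16-M, and the gene rose 3.83-fold (limma adjusted p = 0.013). *Hk1*, which commits glucose to breakdown, read 3.21, 2.96 and 2.73 against 1.76, 1.73 and 2.13, on the chromosome whose genes were mostly lower. It rose 2.13-fold on its brightest probe (limma adjusted p = 0.00838), and another *Hk1* probe gave a log2 difference of 0.32. *Slc2a4*, the insulin-responsive glucose transporter, read -1.33, -0.58 and -0.48 against -3.36, -4.14 and -3.16. All B16-D arrays were far above B16-M, and it rose 6.77-fold (limma adjusted p = 5.91e-05).

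Hypoxia response genes had a median of 0.31 with 3 of 22 called higher and 0 lower, at 0.39 within slide 1 and 0.08 within slide 3. The lists share members: *Pdk1* is also counted among the called glycolysis genes and *P4ha2* among those of collagen folding and cross-linking. *Pdk1*, which diverts pyruvate from mitochondria, read 0.44, 0.95 and 0.37 in B16-D and -1.13, -0.61 and -0.50 in B16-M. It rose 2.52-fold with no overlap on its brightest probe (limma adjusted p = 0.00868). Other *Pdk1* probes well above background on all 6 arrays gave log2 differences of 1.26 and -0.22. *P4ha2*, a collagen prolyl hydroxylase, read 1.68, 1.71 and 1.76 against 1.08, 0.64 and 0.50. The B16-D arrays were almost equal and all higher, a 1.97-fold rise (limma adjusted p = 0.00286). *Epas1*, the regulator HIF2-alpha, read -1.10, -0.04 and -0.33 against -1.69, -1.56 and -1.33 and rose 2.05-fold (limma adjusted p = 0.0186). *Hif1a*, chosen after its values were seen, read 3.51, 3.19 and 3.30 against 3.67, 3.38 and 3.29, with overlap and an adjusted p of 0.75 in limma. The respiratory chain had 0 of 90 called by limma and a median of 0.08, which was -0.10 under quantile normalization.

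Glutathione and NRF2 targets also split, with 3 of 74 called higher and 4 lower and a median of -0.04. *Gsta4*, which clears the lipid peroxidation product hydroxynonenal, read 0.08, -1.01 and -0.77 in B16-D and -4.78, -4.78 and -6.04 in B16-M. The lines were far apart, with 1 of 3 B16-M arrays above background, and the gene was at least 18.6-fold higher (limma adjusted p = 1.48e-05). *Txnrd2*, the thioredoxin reductase of mitochondria, rose 1.47-fold (limma adjusted p = 0.016). *Mgst1*, a membrane-bound glutathione transferase, read 2.48, 1.31 and 1.47 against 2.89, 3.12 and 3.00. The fall was least on replicate 0, without overlap, and the gene fell 2.38-fold (limma adjusted p = 0.0109). *Gstt1*, which lies on chromosome 10 as does *Gstt3*, fell 2.81-fold (limma adjusted p = 0.0225). *Cbr2*, a carbonyl reductase, fell 3.05-fold (limma adjusted p = 0.0479). *Nfe2l2*, NRF2 itself and chosen after its values were seen, read 3.49, 3.36 and 3.50 against 3.63, 3.40 and 3.42. It overlapped between the lines and had an adjusted p of 0.902 in limma.

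Matrix genes were called in both directions. Collagens had 2 of 22 called higher and 0 lower with a median of -0.07, which was 0.02 under quantile normalization. *Col7a1*, the collagen that anchors epithelium, read 0.82, -0.54 and -0.58 in B16-D and -1.45, -1.44 and -1.49 in B16-M. B16-M was tight and B16-D replicate 0 stood above the rest, with a 2.56-fold rise (limma adjusted p = 0.0403). *Col4a1*, a chain of the basement membrane, read -1.74, -1.43 and -1.71 in B16-D and was well above background on no B16-M array. *Col1a2*, a chain of the main fibrous collagen, read -0.82, -0.96 and -1.32 against -0.59, -1.11 and -0.90. It overlapped between the lines, with an adjusted p of 0.811 in limma. Of 20 genes of collagen folding and cross-linking 3 were called higher and 1 lower, against 3.61% of all genes called, with a median of 0.10. *Fkbp10*, a collagen chaperone of the endoplasmic reticulum, read 0.82, 0.76 and 0.45 against -3.75, -4.43 and -4.17. *Fkbp14*, a relative of it, went the other way and fell 1.80-fold (limma adjusted p = 0.0144).

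Matrix glycoproteins and proteoglycans had 4 called higher and 3 lower of 36, which is 19.4%, with a median of -0.18. *Hapln1*, which links hyaluronan to proteoglycans, read -2.74, -1.29 and -1.71 in B16-D and was above background on no B16-M array. *Thbs2*, an antiangiogenic thrombospondin, read -2.50, -2.82 and -3.12 against -5.14, -4.21 and -3.91, with 2 of 3 B16-M arrays above background. The lines did not overlap, and it was at least 2.80-fold higher (limma adjusted p = 0.0255, but 0.0992 with normexp). *Thbs3*, a relative, read 1.30, 0.92 and 1.00 against 2.16, 1.44 and 1.57 and fell 1.57-fold (limma adjusted p = 0.0479). *Olfml3*, a secreted matrix protein, was at least 1.96-fold lower with 2 of 3 B16-D arrays above background (limma adjusted p = 0.00575). B16-D replicate 2, which was left out, read -1.91, above every B16-M array, and with it limma gave *Olfml3* an adjusted p of 0.768. *Tinagl1*, a matrix protein of the basement membrane list, read -1.61, -1.04 and -1.25 against 0.18, -0.11 and -0.09. Every B16-D array was low, a 2.45-fold fall (limma adjusted p = 0.0176). Of 33 matrix proteases and inhibitors 0 were called higher by limma and 2 lower. *Mmp16*, a membrane-bound protease, fell 2.38-fold (limma adjusted p = 0.0328), and *Reck*, an inhibitor of such proteases, fell 1.33-fold (limma adjusted p = 0.0323).

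**Figure D4:**
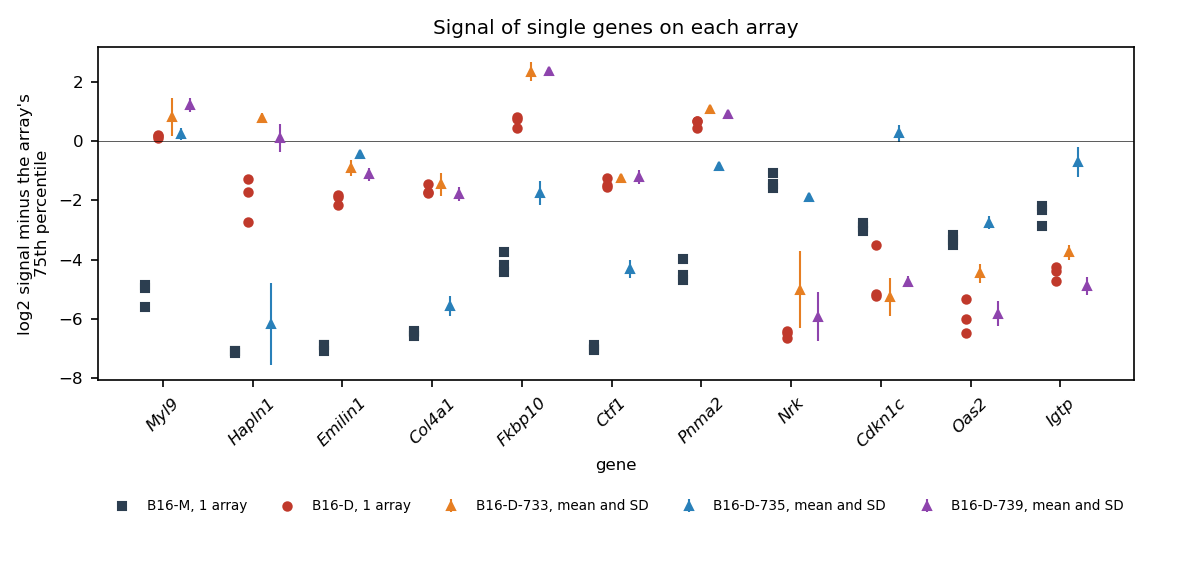
Log2 signal relative to the array's 75th percentile for 11 genes on each B16-M array (squares) and B16-D array (circles), with the mean and SD of each second-generation line (triangles). The B16-D arrays of *Fkbp10* lie at 0.45 to 0.82 and those of B16-M at -4.43 to -3.75.

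The contractile programme rested on few members. SRF and contractile targets had 2 of 37 called higher and 0 lower, with a median of 0.15. *Myl9*, the regulatory light chain of smooth muscle myosin, read 0.22, 0.18 and 0.12 in B16-D and was above background on no B16-M array. *Pdlim1*, which binds alpha-actinin on stress fibres, read 3.92, 3.61 and 3.57 against 3.22, 3.05 and 3.31 and rose 1.42-fold (limma adjusted p = 0.0435). *Acta2*, smooth muscle actin, read 5.29, 5.03 and 4.80 against 4.60, 4.55 and 4.81. Replicate 3 lay within the B16-M range, and limma gave an adjusted p of 0.295. *Tagln* and *Srf*, 2 further anchors of the programme, had adjusted p-values of 0.846 and 0.48 in limma. YAP and TEAD targets had 3 of 22 called higher and 1 lower. *F3*, tissue factor, read 2.09, 1.42 and 1.33 against 0.56, 0.17 and 0.18. All B16-D arrays were higher, a 2.48-fold rise (limma adjusted p = 0.00528). *Wwtr1*, the YAP partner TAZ, rose 1.53-fold (limma adjusted p = 0.0192), whereas the classical targets *Ccn1* and *Ccn2* had adjusted p-values of 0.358 and 0.693 in limma.

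*Daam2*, a formin that builds actin filaments, read -0.33, 0.57 and 0.63 in B16-D and -1.51, -0.98 and -1.16 in B16-M. It rose 2.84-fold with no overlap (limma adjusted p = 0.00516). Of 40 intermediate filaments and tubulins 1 was called, *Tubb2b*, a tubulin of neurons and neural crest. It read 1.26, 1.17 and 1.31 against -1.31, -0.86 and -0.87, rose 4.79-fold (limma adjusted p = 7.13e-05) and was called under all 18 other settings. In B16-D-735 it averaged -2.87, below every B16-M array, and in B16-D-733 and B16-D-739 1.91 and 1.96.

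Adhesion genes were called in either direction. Integrins had 1 of 18 called, *Itga9*, a receptor for tenascin, which read -0.45, -0.82 and -0.77 in B16-D and 0.35, 0.38 and 0.59 in B16-M. It fell 2.18-fold with no overlap (limma adjusted p = 0.000529). Of 45 genes of immunoglobulin-type adhesion and junctions 3 were called higher and 3 lower. *Jam3*, a junctional adhesion molecule, read 1.31, 1.47 and 1.32 against 0.51, 0.43 and 0.63 and rose 1.80-fold (limma adjusted p = 0.000442). *F11r*, the related molecule JAM-A, read 1.54, 0.51 and 0.72 against 2.24, 1.84 and 1.97 and fell 2.13-fold (limma adjusted p = 0.0368). *Tjp3*, a junction scaffold on chromosome 10, fell 1.94-fold (limma adjusted p = 0.0186). *Icam2*, a ligand of leukocyte integrins, fell 1.80-fold (limma adjusted p = 0.0483). B16-D replicate 2, which was left out, read -1.86, within the B16-M range, and with it limma gave *Icam2* an adjusted p of 0.115. Of 36 cadherins and protocadherins 3 were called higher and 0 lower, among them *Celsr3*, a planar polarity cadherin that rose 2.88-fold (limma adjusted p = 0.0328). Yet 24 of the 36 had a negative difference. The list median was -0.22, at -0.30 within slide 1 and 0.29 within slide 3.

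Axon guidance cues had 1 of 57 called higher and 3 lower. *Sema7a*, a membrane-anchored semaphorin and the ligand of *Plxnc1*, read -2.74, -2.32 and -2.09 in B16-D and -0.21, -0.74 and -0.98 in B16-M. Every B16-D array was more than a unit below B16-M. It fell 3.34-fold (limma adjusted p = 0.00148), so that ligand and receptor were both lower. *Sema6d* read -1.33, -1.50 and -1.93 against 0.35, -0.38 and -0.14 and fell 2.88-fold (limma adjusted p = 0.00262). *Sema3d* was the member called higher.

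Growth and cytokine signals changed in single genes. Of 30 genes of the interleukin-6 family and JAK-STAT list 2 were called higher and 3 lower. *Ctf1*, the cytokine cardiotrophin 1, read -1.54, -1.48 and -1.24 in B16-D and was above background on no B16-M array. *Jak3*, a kinase of cytokine receptors, read -4.30, -4.73 and -4.32 against -3.44, -3.09 and -3.30. It was at least 2.19-fold lower with 2 of 3 B16-D arrays above background (limma adjusted p = 0.000785). B16-D replicate 2, which was left out, read -3.03, above every B16-M array, and with it limma gave *Jak3* an adjusted p of 0.190. *Socs3*, the feedback inhibitor of this pathway, read -0.46, 0.14 and -0.27 against 0.58, 0.30 and 0.47. Replicate 1 was lower by little, and it fell 1.57-fold (limma adjusted p = 0.0438). *Stat5b* fell 1.44-fold (limma adjusted p = 0.0219). *Il6st*, the receptor chain the family shares, was chosen after its values were seen. It had an adjusted p of 0.519 in limma.

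The AP-1 relatives *Batf3* and *Batf* were the only members called among 32 of MAPK feedback and AP-1, both higher. *Batf3* read -0.23, 0.04 and -0.27 in B16-D and -1.41, -1.30 and -0.95 in B16-M. It rose 2.10-fold with no overlap (limma adjusted p = 0.00526). *Batf* rose 1.56-fold (limma adjusted p = 0.0291). Of 44 Wnt pathway genes 2 were called higher and 2 lower. *Dkk3*, a secreted relative of Wnt inhibitors, read 1.40, 1.48 and 1.36 against 2.05, 1.91 and 2.25 and fell 1.57-fold (limma adjusted p = 0.00986). *Tcf7*, a transcription factor of the pathway, was above background on no B16-M array and was at least 2.16-fold higher. Of 40 TGF-beta and BMP pathway genes 1 was called, *Fstl1*, a secreted BMP antagonist that read -1.48, -1.05 and -1.02 against -2.74, -2.59 and -2.41. It rose 2.63-fold (limma adjusted p = 0.026) and stood higher still in the descendants, at 0.26, 0.47 and 0.21. *Tgfb1* read -0.67, -2.55 and -2.98 against -0.78, -0.74 and -0.50. Replicate 0 lay within the B16-M range while the others were far lower, and limma gave an adjusted p of 0.106, or 0.000198 without replicate 0 and 0.00467 with the mean of all probes. *Igfbp6*, which binds insulin-like growth factor 2, read -0.84, -2.07 and -2.46 against -0.19, -0.09 and 0.10 and fell 3.31-fold (limma adjusted p = 0.0169).

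Among genes that display antigens or mark cells for immune cells a few were called higher. Antigen presentation had 2 of 21 called higher and 0 lower with a median of 0.00, between -0.07 and 0.03 under the other scalings. *H2-K1*, a class I heavy chain, read 0.81, 0.92 and 0.94 in B16-D and 0.05, 0.31 and 0.03 in B16-M. All B16-D arrays were higher and tight, a 1.69-fold rise (limma adjusted p = 0.028). *H2-DMb1*, which loads class II molecules, read 0.03, -1.35 and -1.37 against -3.16, -3.90 and -3.03 and rose 5.53-fold (limma adjusted p = 0.00248). *B2m*, the class I light chain, read 4.79, 4.35 and 4.61 against 4.79, 4.80 and 4.60, with overlap and an adjusted p of 0.693 in limma. *Cd274*, the checkpoint ligand PD-L1, read -1.91, -2.74 and -2.79 against -1.84, -1.97 and -1.97. Replicate 0 lay within the B16-M range, and limma gave an adjusted p of 0.212, or 0.0153 without replicate 0. *Lgals3*, galectin 3, which blunts T cells, read 7.57, 6.02 and 6.26 against 5.07, 4.30 and 4.64. It rose 3.85-fold with no overlap (limma adjusted p = 0.0227). *Cx3cl1*, the chemokine fractalkine, read -2.13, -1.77 and -1.78 against -2.92, -3.24 and -2.97 and rose 2.22-fold (limma adjusted p = 0.00966).

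Stem cell and dormancy genes had 3 of 24 called higher and 0 lower, with a median of 0.12. *Aldh1a3*, a retinal dehydrogenase used as a stem cell mark, read -0.76, -1.22 and -1.28 in B16-D and -3.87, -3.71 and -3.68 in B16-M. The lines were over 2 units apart. It rose 6.35-fold (limma adjusted p = 0.000107) and was called under every other setting. *Abcg2*, a drug exporter, read 2.50, 2.13 and 2.06 against 1.25, 1.30 and 1.62 and rose 1.79-fold (limma adjusted p = 0.0115). *Nr2f1*, a nuclear receptor tied to dormancy in other tumours, read 2.64, 2.93 and 3.09 against 3.27, 3.17 and 3.02. It overlapped between the lines, with an adjusted p of 0.306 in limma. *Bhlhe41*, another such regulator, had an adjusted p of 0.453 in limma.

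S100 and annexins had 1 of 20 called higher and 2 lower. *S100a6*, a calcium sensor of motile cells, read 3.25, -0.04 and -0.05 in B16-D and -4.03, -2.64 and -2.24 in B16-M. All B16-D arrays were higher but replicate 0 stood 3 units above the others, and the fold was 16.3 (limma adjusted p = 0.0125). Without replicate 0 the log2 difference fell from 4.02 to 2.93. *S100a1* read 2.20, 1.06 and 1.41 against 2.98, 2.36 and 2.42 and fell 2.04-fold (limma adjusted p = 0.0488).

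Transporters and channels held some of the larger changes. Solute carriers had 11 of 245 called higher and 5 lower, 4.49% and 2.04% of the list, with a median of 0.05. *Slc44a3*, a choline transporter relative, read -0.83, -0.84 and -1.17 in B16-D and -2.81, -2.85 and -2.61 in B16-M. It rose 3.50-fold with no overlap (limma adjusted p = 4.33e-05). *Slc46a3*, a lysosomal carrier, read -1.57, -1.76 and -1.59 against -0.67, -0.25 and -0.16 and fell 2.43-fold (limma adjusted p = 0.000308). Ion channels had 5 of 85 called higher and 3 lower, with a median of -0.28 that was 0.07 within slide 3. *Kcnj13*, an inward rectifier of pigment epithelium and fish pigment cells, read -5.01, -4.38 and -4.47 against -0.48, -0.96 and -0.88. The B16-D arrays were more than 3 units lower, with 2 of 3 above background. It was at least 11.9-fold lower (limma adjusted p = 0.000116). *Cacna1c*, a calcium channel pore, read -1.87, -1.97 and -2.45 against -0.52, -0.76 and -0.74 and fell 2.68-fold (limma adjusted p = 0.00423). *Hcn3*, a pacemaker channel, rose 2.74-fold (limma adjusted p = 0.00381). *Gpr37*, an orphan receptor of brain, read -0.79, -0.34 and -0.49 against 1.28, 0.99 and 1.27 and fell 3.30-fold (limma adjusted p = 0.000301). It was called under all 18 other settings.

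Neuronal and synaptic genes had 3 of 57 called higher and 2 lower. *Uchl1*, a ubiquitin hydrolase of neurons, read 4.97, 3.82 and 3.90 in B16-D and 2.05, 2.07 and 2.31 in B16-M. Every B16-D array was higher, a 4.24-fold rise (limma adjusted p = 0.000422). *Map2*, a dendritic microtubule protein, fell 1.97-fold (limma adjusted p = 0.0106). Of 85 histone and DNA methylation enzymes 1 was called, *Nsd1*, a histone H3 methylase that read -0.97, -0.54 and -0.48 against -1.86, -1.64 and -1.67. It rose 2.08-fold with no overlap (limma adjusted p = 0.000751).

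Some called genes were silent in 1 line. For these, and for genes above background on only 1 or 2 of 3 arrays of the dim line, a bound replaces the fold: the mean log2 signal of the bright line is set against the dim line's mean of, on each array, the higher of the probe's own signal and the lowest signal that was well above background. Of the 490 higher genes 44 were above background on no B16-M array, 37 of them with a symbol, and the median bound of those 37 was 2.45-fold. Of the 37, 21 were above background on every array of all second-generation lines and 1, *Celsr1*, on none. *G0s2*, an inhibitor of fat breakdown chosen after its values were seen, was at least 4.80-fold higher. *Aldh1a7*, a dehydrogenase, was above background on no B16-D array and was at least 5.05-fold lower. *Lhx5*, a homeobox factor of the forebrain, read -6.51, -6.55 and -7.48 in B16-D and -1.91, -2.14 and -2.01 in B16-M. The B16-M arrays were all well above background and the B16-D arrays were not, a fall of at least 6.52-fold. *Cux2*, a homeobox factor of cortical neurons, was at least 4.30-fold lower. Of the 387 lower genes 25 were of this kind, 19 with a symbol, with a median bound of 2.48-fold. None of the 19 was above background on every array of all second-generation lines, but 13 were so in at least 1 line.

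The called genes were also read in the descendants. They had been picked by their difference from the same B16-M arrays, which by itself draws each line's median in the direction of the call, and these medians were not tested. The median of the 490 higher genes was 0.99 in B16-D, 0.92 in B16-D-733, 0.82 in B16-D-739 and 0.42 in B16-D-735. The median of the 387 lower genes was -0.93, -0.83, -0.76 and -0.19 in that order. *Fkbp10* averaged 2.36 in B16-D-733, 2.39 in B16-D-739 and -1.75 in B16-D-735. *Nrk*, an embryonic kinase that was off in B16-D, averaged -1.87 in B16-D-735, near the B16-M arrays at -1.57, -1.06 and -1.44, and -5.02 in B16-D-733 and -5.93 in B16-D-739. For both genes B16-D-735 stood between B16-D and B16-M or with B16-M. *Batf* differed from the mean of the descendants, with a mean of 0.37, 0.22 and 0.37 in B16-D-733, B16-D-735 and B16-D-739 against -1.60, -1.50 and -1.63 on the B16-D arrays (limma adjusted p = 3.97e-06 for that difference).

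In some lists few or no members were called. Lysosome and autophagy (102 tested), ATF4 and serine pathway (37), histones (51), septins (10), Hox genes (19), pigment cell regulators (8), leukocyte markers (6), keratinocyte markers (4), glia and neuron markers (7) and adipocyte and skeletal muscle markers (3) had 0 called by limma in either direction. Melanosome enzymes and structure had 1 of 26, *Rab32*, and MITF targets outside the melanosome had 1 of 12, *Tbx2*, a T-box factor that fell 1.31-fold (limma adjusted p = 0.0485). Dedifferentiated and neural crest genes had 1 of 19, *Aqp1*, a water channel at least 4.78-fold higher with 1 of 3 B16-M arrays above background (limma adjusted p = 0.00483). *Axl*, a receptor of the dedifferentiated state, read 0.92, -1.15 and -1.36 in B16-D and 0.22, 0.26 and 0.80 in B16-M. Replicate 0 lay above B16-M and the others below it, and limma gave an adjusted p of 0.423, or 0.0483 without replicate 0. *Sox9*, *Nes*, *Capg*, *Cd44*, *Septin9* and *Tgfb2*, further anchors of the lists, had adjusted p-values of 0.881, 0.408, 0.0726, 0.796, 0.732 and 0.671 in limma. *Ngfr*, a neural crest receptor above background on 2 of 3 B16-D and on no B16-M array, had one of 0.0591, and *Col1a1*, above background on 1 of 3 B16-M arrays and on no B16-D array, one of 0.551. Zfp genes had 4 of 339 called higher and 2 lower with a median of 0.01, DNA repair 1 of 84 higher, *Mre11a*, cancer testis antigens 2 of 29 higher, *Mageh1* and *Tex10*, and endoplasmic reticulum folding 1 of 39 lower, *Hsp90b1*. Heat shock and cytosolic chaperones had 2 of 44 lower, *Hspb8* and *Hsf2*, the Notch and Hedgehog pathway 2 of 30 lower, with a median of 0.00, *Cdon* and *Dtx4*, complement and NF-kB targets 1 of 26 higher, *Saa3*, and chemokines and receptors 1 of 13 higher, *Cx3cl1*. Basement membrane genes had 1 of 10 lower, *Tinagl1*, growth factor receptors and ligands 1 of 58 in each direction, *Pdgfrb* and *Igfbp6*, and G-protein-coupled receptors named Gpr or Adgr 1 of 44 higher and 2 lower, *Adgrg3*, *Gpr37* and *Gpr162*. Fibroblast markers had 1 of 6 and pericyte and smooth muscle markers 1 of 7, in both cases *Pdgfrb*, and endothelial markers had 1 of 3, *Vwf*, at least 5.86-fold higher with 1 of 3 B16-M arrays above background (limma adjusted p = 0.026, but 0.119 with normexp and 0.0525 without B16-D replicate 0). Checkpoint and immune-inhibitory ligands had a median of -0.19 with 10 of 15 members negative, yet 2 were called higher, *Lgals3* and *H60b*, a ligand of the killer cell receptor NKG2D.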

How the data were processed

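Total RNA of the 4 B16-D, 3 B16-M and 10 second-generation arrays was compared, and the other 7 samples of the series, named M0-p20 and J365-p20, were not used. The deposited intensity values were made by the authors with Agilent Feature Extraction 10.7.3.1, which subtracts the background and corrects a spatial trend, per the file headers and the submitters' processing notes. The study names GeneSpring GX 13.0 without stating a test. Of 59305 spots that are not controls, those marked as outliers were left out and spots of 1 probe were averaged, which gave 56605 probes. The log2 signal minus the 75th percentile of the array was used, with the brightest probe for each of 22911 symbols and 22711 identifiers without a symbol. Genes well above background on at least 3 arrays were tested, 14141 of them with a symbol. limma 3.58.1 in R 4.3.3 fitted 1 mean for each of the 5 lines, with moderated two-sided tests and Benjamini-Hochberg adjustment at 0.05, and was tested on simulated data. Tables and figures used Python 3.11.15 with numpy 2.4.6, pandas 2.3.3, scipy 1.17.1 and matplotlib 3.10.9.

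The members and the 65 gene lists were chosen with earlier results of these data known. From each list at most 4 members in each direction were named: those called with the greatest absolute log2 difference, where the probe was well above background throughout B16-D or throughout B16-M and the arrays of the lines did not overlap. Members that define a pathway, and the 10 genes with the greatest rise and the 10 with the greatest fall by the same conditions, were added. Alternatives were B16-D replicate 2 included, quantile normalization, the mean of all probes, other filters, slide or replicate as a block, only arrays without a date in the title, only the 6 arrays of both lines and each array left out. Normexp on the median signal with offset 50, the mean signal not being used here, and 2 other definitions of the 75th percentile were added after the data were seen.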

Additional observations from a re-analysis of the deposited data

Results flagged for a closer look

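A value was singled out where 1 of the 4 B16-D arrays, replicate 2 included, stood far from the other 3. That held for 16 of 177 groups of 4 values, and chance alone does so in about 1 group of 20. Array measures were among them: the median signal of replicate 2, at 155.4, and on replicate 0 the standard deviation of the negative controls, at 7.61, and the residual of the fitted background surface, at 7.08. Replicate 0 stood apart for *Daam2* at -0.33, *Fstl1* at -1.48, *H2-DMb1* at 0.03, *Cbr2* at -0.76, *Mgll* at 1.20, *S100a6* at 3.25, *Zfp521* at -2.82 and *Ddx58* at -0.13, each a log2 signal relative to the 75th percentile of the array. Replicate 2 stood apart for *Wdr43* at 2.33, *Slc13a4* at -0.55, *Scn2a* at -2.15, *Gpr162* at -1.50 and *Nrk* at -4.65.

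Of the 877 genes called against B16-M, 94 also differed in the limma test of B16-D against the second-generation lines. Only the named genes were read further, and in 5 of them B16-D and the mean of those lines lay on opposite sides of B16-M. For *Cx3cl1* and *Zfp423* only B16-D-735, at -6.20 and -1.79, lay on the other side of B16-M, while B16-D-733 and B16-D-739 lay on the side of B16-D. The log2 difference of B16-D from those lines was -1.86 for *Icam2*, 1.77 for *Cx3cl1*, -0.71 for *Zfp423*, -1.18 for *Slc13a4* and -2.58 for *Gbp7*. *Slc13a4* was well above background on no B16-D array and *Gbp7* on no array of B16-D or B16-M, so these values rest on background signal and are no measured difference.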

How the results depend on the processing

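Of 171 named genes that were called, 25 were called under every setting in which they were tested, and no gene called under both the reported and another setting changed direction. *Slc13a4* turned to 0.40 with B16-D replicate 2, which reads -0.55 against -5.84, -5.13 and -5.45 on the other B16-D arrays. *Pnma2* turned to -0.06 with only the 6 arrays of both lines, where its other probe, which reads -0.06, is the brightest. Neither passed there. Normexp lowered the differences of dim genes, to 1.10 for *Fabp3* and 1.23 for *Zfp521*.

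Of the called genes given by name, the normexp background correction ended the calls of *Rab32*, *Perp*, *Lgr5*, *Usp18*, *Gbp7*, *Wdr43*, *Cdkn2d*, *Cdkn1c*, *Trp53inp1*, *Fdps*, *Dgat2*, *Thbs2*, *Thbs3*, *Reck*, *Pdlim1*, *Icam2*, *Celsr3*, *Tcf7*, *Fstl1*, *H2-K1*, *S100a1*, *Celsr1*, *Mre11a*, *Hsp90b1*, *Adgrg3*, *Gpr162*, *Vwf*, *Zfp423*, *Slc13a4* and *Scn2a*. Leaving out an array ended between 40 and 79 of the calls of named genes. Without B16-D replicate 0 these were, of the genes given by name, *Col7a1*, *Tinagl1*, *Thbs2*, *Mmp16*, *Reck*, *Pdlim1*, *Tjp3*, *Icam2*, *Tcf7*, *Batf*, *Socs3*, *Lgals3*, *Trp53inp1*, *Cdkn2c*, *Cdkn2d*, *Bid*, *Gstt1*, *Nop16*, *Wdr43*, *Hsp90b1*, *Tex10*, *Slc13a4*, *Scn2a*, *Adgrg3*, *Mre11a*, *Vwf*, *Nop2*, *Npm1* and *Lats1*. *Nes* passed with slide as a block (limma adjusted p = 0.0296).

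The counts moved more. Without a filter on dim probes 490 genes passed, 269 higher and 221 lower. With only the 6 arrays of both lines, which leaves 4 residual degrees of freedom, 87 passed, 56 higher and 31 lower. Slide as a block gave 609 higher and 639 lower. With only the arrays without a date in the title, 1325 passed, 774 of them higher, among them 419 (47.8%) of the 877 genes, and B16-D against the second-generation lines gave 867. This leaves B16-D replicate 0 alone, assumed to vary like the other groups. Leaving out each array in turn gave 409 to 990 genes, 211 to 459 higher and 173 to 546 lower, and 154 to 360 for B16-D against the second-generation lines. Among the alternatives chosen after seeing the data, normexp gave 303 higher, and 175 for B16-D against the second-generation lines. The definition of the 75th percentile was also picked after its counts were seen. Over all spots with outliers it gave 885 genes, and over averaged probes 795. The genes of chromosome 10 called lower were 34 without the filter.

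Replicates share only a number between lines. A replicate block gave 1177 genes, 670 higher and 507 lower, and the same-number pairs correlated at 0.28 and 0.04, with only 2 pairs shared, so no pairing was used.

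With 46.0% to 55.2% of spots well above background on the arrays used, changes among dim genes are bounds or untested. A single population of cells per line and 3 arrays limit what can be said of dormancy in general, and slides and lines are only partly crossed.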
